A study of Mus musculus with 24 samples.

Results

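Active YAP was compared with GFP in wild-type mouse hearts. The comparison rests on 8 of the 24 libraries of the series, 4 from WT/GFP hearts and 4 from WT/aYAP hearts, chosen by their genotype and injection labels. Pups received AAV9 under the skin on postnatal day 1, at 1e+10 viral genomes per gram, and hearts were taken on postnatal day 7.5. In WT/aYAP hearts the virus carried YAP with the S127A change, and in WT/GFP hearts it carried GFP. Both transgenes were driven by the cardiac troponin T promoter, so the vector was active in cardiomyocytes while the RNA came from whole tissue labelled heart apex. The wild-type animals were littermates of Xinβ knockout pups on a C57BL6 background, and all 8 were injected, so that GFP expression and AAV9 exposure form the baseline and no uninjected heart enters. The other injected libraries, 4 from KO/GFP and 4 from KO/aYAP hearts lacking Xinβ (the protein of Xirp2), were used to share the estimate of spread and to test where the response differed by genotype. The vector encodes human YAP, so reads of the mouse gene Yap1 do not measure the transgene.

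YAP is a transcriptional co-activator that is held in the cytoplasm when the Hippo kinases MST (Stk3, Stk4) and LATS (Lats1, Lats2) phosphorylate it. Serine to alanine at the site named above removes a LATS site, and the protein then enters the nucleus, where it works through TEAD factors bound to DNA. Its best known targets include Ankrd1, Cyr61 (Ccn1) and Ctgf (Ccn2), and in the newborn heart YAP activity is known for driving cardiomyocyte division.

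TEAD factors recognise the letters CATTCC, or GGAATG on the other strand, and these letters occurred in the 250 bases before a RefSeq start site of Ankrd1, Cyr61 (Ccn1) and Amotl2, which are among the targets described below. The sequences are from RefSeq (GRCm38.p6), with the motif in capitals, and are shown because the target genes are the subject of the comparison. The pair of Ankrd1 windows holds 30 bases each, at chr19:36120037-36120066 and chr19:36119950-36119979 on the minus strand, with the motif starting 210 and 123 bases before the RefSeq start site. The Ccn1 sequence is the whole 250 bases at chr3:145649986-145650235 on the minus strand, and the Amotl2 window lies at chr9:102717727-102717756 on the plus strand. The RefSeq start sites used for Ankrd1 and Amotl2 lie inside the GENCODE gene bounds, so by GENCODE these windows fall within the genes.
Ankrd1 distal: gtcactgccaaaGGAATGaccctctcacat
Ankrd1 proximal: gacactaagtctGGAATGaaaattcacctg
Ccn1: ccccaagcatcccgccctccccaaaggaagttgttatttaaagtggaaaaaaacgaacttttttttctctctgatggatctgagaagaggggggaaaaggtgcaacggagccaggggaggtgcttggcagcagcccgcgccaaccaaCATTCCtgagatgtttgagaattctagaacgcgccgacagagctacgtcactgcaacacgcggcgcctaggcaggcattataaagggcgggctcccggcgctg
Amotl2: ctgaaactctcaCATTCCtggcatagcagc

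Of the 30 canonical targets listed, 22 had a promoter in the RefSeq table, and 8 of these 22 held at least 1 match. Over promoters, 32% of the 25 promoters of the list and 12.6% of all 32851 promoters held the motif. Ctgf had no entry, and the promoters of Tgfb2 and Myof held no match. A match is a description of letters and not evidence of TEAD binding.

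The 8 wild-type libraries held between 15015038 and 19444404 reads on genes, recovered from the deposited values. Cardiomyocyte genes were abundant in each of them, with Myh6 between 23001 and 32232 CPM. The 13 mitochondrially encoded genes together held 134300 to 208300 CPM. Xirp2 stood at 56.0 to 149 CPM in wild-type libraries and at no more than 0.972 CPM in any knockout library. The male gene Ddx3y and the female transcript Xist did not separate cleanly: WT/GFP 1 and 2 had Ddx3y at 56.7 and 54.2 CPM with Xist at 1.43 and 1.45, whereas WT/aYAP 2 had 61.4 and 69.5 CPM, and WT/aYAP 3 had 8.61 and 747 CPM. Both were also present in WT/GFP 3 and in the other WT/aYAP libraries. According to the methods, each group mixed males and females. Where the double signal came from was not tested. WT/GFP 1 and 2 also stood apart from the other 6 wild-type libraries, with high interferon-stimulated genes and low immediate early genes, on principal component 1, which held 26.3% of the variance, at 35.3 and 19.7 against −17.4 to −4.29. Results that these libraries decide are therefore given with and without them.

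No gene of 14597 tested passed an adjusted p of 0.05 in limma (0% called), and the smallest adjusted p was 0.197, for Myl4. At an unadjusted p under 0.05, 509 genes were higher in WT/aYAP (3.49%) and 502 were lower (3.44%). All 4 WT/aYAP values lay above all 4 WT/GFP values for 310 genes (2.12%) and below them for 320 genes (2.19%). The quasi-likelihood test of edgeR on recovered reads also called 0 genes, with 943 at an unadjusted p under 0.05, and DESeq2 called 11 (0.0754%). Without WT/GFP 1 and 2, limma again called 0 genes, and 254 genes (1.74%) were higher and 191 (1.31%) lower at an unadjusted p under 0.05. The limma p-values and intervals rest on a spread shared by the injected libraries, knockout included, 16 in the main fit with 4 hearts a group. They therefore do not measure the spread of the wild-type hearts alone. A fit to the wild-type libraries only also called 0 genes. In that fit 1179 genes had an unadjusted p under 0.05, 612 higher and 567 lower in WT/aYAP. In these libraries 1 read was worth no more than 0.0656 CPM.

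Of the YAP targets, Ankrd1 gave the clearest reading. Ankrd1 (chromosome 19, 36111961 to 36120099, minus strand, GRCm38) encodes a stress-responsive muscle ankyrin repeat protein of the nucleus and sarcomere. Its level was 555, 548, 630 and 546 CPM in WT/GFP 1 to 4 and 969, 799, 728 and 913 CPM in WT/aYAP 1 to 4. The groups did not overlap, with means of 570 ± 40.5 and 852 ± 109 CPM (SD, n = 4 each). The log2 fold change was 0.57 (SE 0.23, 95% interval 0.10 to 1.05), which ranked 201st among 14597 increases and 437th by p, with a limma adjusted p of 0.703. Without WT/GFP 1 and 2 it was 0.53, and it stayed between 0.51 and 0.66 over all alternatives.

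The CCN genes, secreted matricellular proteins, had the largest and the third largest log2 fold changes of the list. Ctgf (chromosome 10, 24595442 to 24598683, plus strand) stood at 65.0, 51.3, 74.2 and 68.7 CPM in WT/GFP and at 90.1, 91.7, 78.8 and 93.8 CPM in WT/aYAP. The groups did not overlap, but the log2 fold change of 0.46 (95% interval −0.05 to 0.96) had a limma adjusted p of 0.767. Cyr61 (chromosome 3, 145646976 to 145649981, minus strand) stood at 26.1, 21.9, 49.7 and 44.9 CPM in WT/GFP and at 53.8, 45.6, 65.9 and 51.5 CPM in WT/aYAP. Its low values were those of WT/GFP 1 and 2, and the groups overlapped. The log2 fold change of Cyr61 was 0.66 (limma adjusted p = 0.719) and was 0.18 without these 2 libraries.

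**Figure D1:**
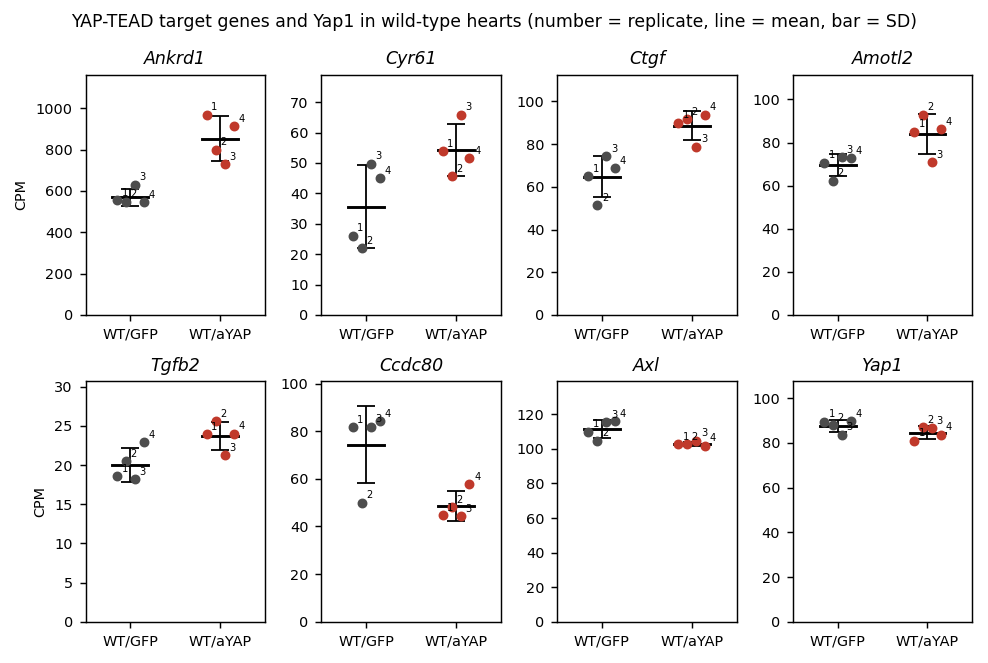
CPM in each of the 4 WT/GFP and 4 WT/aYAP libraries for 8 genes, with the axis starting at 0, points numbered by replicate, lines for the mean and bars for the SD. Ankrd1 and Ctgf do not overlap between groups, Cyr61 is low in WT/GFP 1 and 2, Ccdc80 is mostly lower in WT/aYAP, and Axl and Yap1 lie close together.

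Of the other targets, Ccdc80 had the largest difference, and it was negative. Amotl2, an angiomotin-like scaffold that holds YAP in the cytoplasm, was 70.5, 62.3, 73.1 and 72.7 CPM in WT/GFP and 85.1, 93.0, 70.9 and 86.2 CPM in WT/aYAP, a log2 fold change of 0.26 (limma adjusted p = 0.754). Tgfb2, a secreted growth factor, was 18.6, 20.47, 18.2 and 22.9 CPM against 23.9, 25.6, 21.2 and 24.02 CPM, a log2 fold change of 0.23 (limma adjusted p = 0.715). Only WT/GFP 4 of the controls reached into the WT/aYAP range for Tgfb2, and only WT/aYAP 3 lay within the control range for Amotl2. Ccdc80, a matrix protein, went the other way, at 81.6, 50.0, 81.9 and 84.1 CPM in WT/GFP and 44.8, 48.0, 44.2 and 57.6 CPM in WT/aYAP, with a log2 fold change of −0.58 (limma adjusted p = 0.703). Myof, a membrane repair protein, was likewise lower, with a log2 fold change of −0.35 (limma adjusted p = 0.722) that became −0.21 without WT/GFP 1 and 2.

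As a list, the canonical targets sat close to the rest of the transcriptome. Of 28 tested, 16 had a positive and 12 a negative log2 fold change, with a median of 0.05 beside −0.01 over all 14597 genes, of which 48.8% were positive. At an unadjusted p under 0.05, 3 of 28 were higher (Ankrd1, Tgfb2 and Cyr61) and 1 was lower (Ccdc80), where 3.49% and 3.44% of all genes were. Without WT/GFP 1 and 2, 0 were higher and 1 was lower, beside 1.74% and 1.31% of all genes. The groups of 2 members, Ankrd1 and Ctgf, did not overlap and were higher, beside 2.12% of all genes. For 24 of the 28 the upper 95% bound of the log2 fold change was under 1, beside 14139 of all 14597 genes. The list kept a median between 0.00 and 0.09 over all alternatives. A further list held YAP pathway genes assayed by qPCR in uninjected knockout and control hearts. Of its 10 genes, 6 were positive with a median of 0.04, and Ankrd1 alone had an unadjusted limma p under 0.05. Axl, a receptor tyrosine kinase, was 103 ± 1.28 CPM in WT/aYAP and 111 ± 5.24 CPM in WT/GFP (SD, n = 4 each), a log2 fold change of −0.11 (95% interval −0.32 to 0.09).

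**Figure D2:**
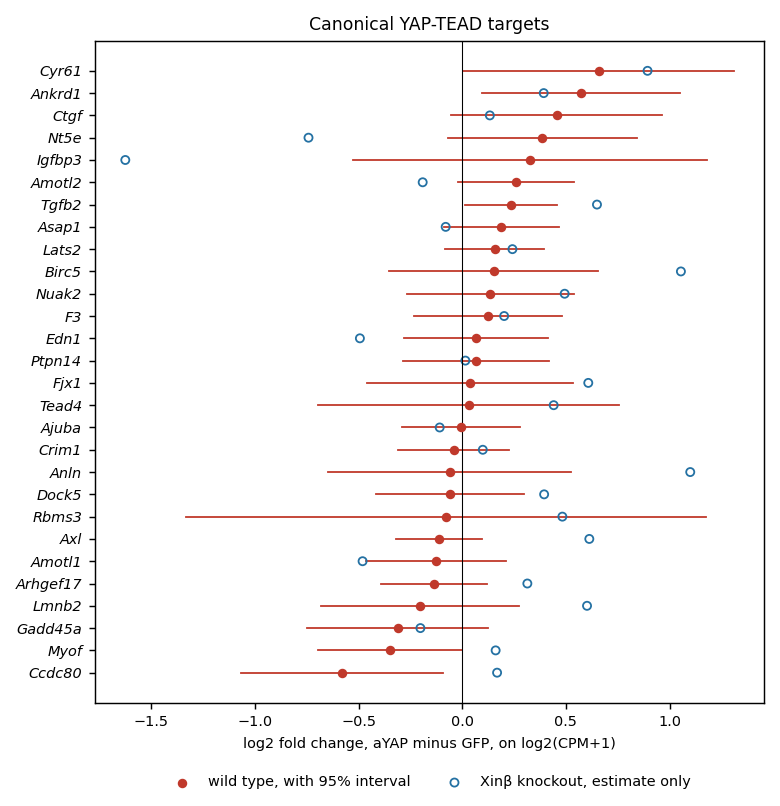
Log2 fold change of the 28 canonical targets tested, aYAP minus GFP on log2(CPM+1), in wild type (filled, with 95% interval) and in Xinβ knockout (open, estimate only). Cyr61, Ankrd1 and Ctgf head the wild-type order at 0.66, 0.57 and 0.46, Ccdc80 ends it at −0.58, and most wild-type intervals include 0.

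Within the Hippo pathway itself Tead3 had the smallest p. Tead3, which encodes one of the DNA-binding partners of YAP, was 19.8, 15.7, 20.9 and 19.2 CPM in WT/GFP and 20.6, 25.8, 26.2 and 32.2 CPM in WT/aYAP. Only WT/aYAP 1 lay within the control range, and the log2 fold change was 0.44 (95% interval 0.16 to 0.73, limma adjusted p = 0.644). Tead2, another TEAD factor, was 23.2, 21.6, 24.7 and 21.7 CPM against 29.4, 26.8, 33.5 and 25.2 CPM without overlap, a log2 fold change of 0.32 (limma adjusted p = 0.703). Tead1, the TEAD gene with the highest single readings here, could not be compared: its values were 142, 14.0, 146 and 16.4 CPM in WT/GFP and 178, 10.5, 43.2 and 13.7 CPM in WT/aYAP, so that libraries of the same group differed by far more than the groups did.

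Taok3, a kinase that activates MST, was 14.1, 17.6, 12.5 and 13.7 CPM in WT/GFP and 12.7, 11.0, 8.36 and 9.06 CPM in WT/aYAP, a log2 fold change of −0.46 (limma adjusted p = 0.693). Endogenous Yap1 was level, at 87.6 ± 2.76 and 84.5 ± 2.84 CPM (SD, n = 4 each), and the log2 fold change of −0.05 had a 95% interval from −0.20 to 0.09. Wwtr1, which encodes the YAP paralogue TAZ, did not overlap but differed by only 0.10 on the log2 scale (limma adjusted p = 0.861). Of 33 pathway genes tested, 2 were higher and 1 was lower at an unadjusted p under 0.05, beside 3.49% and 3.44% of all genes, and their median log2 fold change was 0.03. Mob1a, a LATS co-activator, was lower without overlap, at 56.0 to 68.4 CPM in WT/GFP and 52.7, 54.9, 50.0 and 15.2 CPM in WT/aYAP, with WT/aYAP 4 far below the rest (limma adjusted p = 0.822). Limd1, a LIM domain inhibitor of LATS, reached 84.6 CPM in WT/aYAP 3 and lay between 23.8 and 36.9 CPM in the other 7. For Tead1, Mob1a and Limd1, whether the assignment of reads to genes differed between libraries was not tested, so these CPM may not measure the genes' expression.

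The gene with the smallest p in the transcriptome was Myl4, the fetal and atrial essential myosin light chain. Myl4 (chromosome 11, 104550663 to 104595753, plus strand) stood at 7.65, 9.54, 6.96 and 9.04 CPM in WT/GFP and at 14.5, 16.3, 16.7 and 18.05 CPM in WT/aYAP. Each WT/aYAP value exceeded all WT/GFP values and the highest knockout value of 10.4 CPM. The log2 fold change was 0.91 (SE 0.15, 95% interval 0.59 to 1.23), with an adjusted p of 0.197 in limma, 0.247 in edgeR and 0.000176 in DESeq2. Without WT/GFP 1 and 2 it was 0.96. Of the other atrial markers, Nppa ranged from 87.8 to 302 CPM in WT/GFP and from 159 to 231 CPM in WT/aYAP, and Dkk3 differed by 0.03 on the log2 scale. Nppa had a log2 fold change of 0.28, which became 0.87 without WT/GFP 1 and 2, since WT/GFP 3 and 4 were both below all WT/aYAP values. The summed level of the atrial list was 117 to 338 CPM in WT/GFP and 205 to 278 CPM in WT/aYAP. Whether atrial tissue in the dissected samples had a part in the Myl4 difference was not tested.

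Behind Myl4 came the other genes of smallest p that were higher without overlap, whose functions were not tested as a set. Inhbb, the activin B subunit, was 1.91, 1.39, 1.47 and 1.42 CPM in WT/GFP and 2.80, 4.28, 4.34 and 4.07 CPM in WT/aYAP, a log2 fold change of 0.93 (limma adjusted p = 0.585, DESeq2 adjusted p = 0.0151). Prkcd, protein kinase C delta, was 15.4, 16.9, 12.3 and 16.7 CPM against 20.4, 21.9, 23.0 and 24.5 CPM, a log2 fold change of 0.53 (DESeq2 adjusted p = 0.0291). Evl, an Ena/VASP actin regulator, was 51.0, 50.7, 54.4 and 53.6 CPM against 64.2, 68.6, 65.8 and 74.9 CPM, a log2 fold change of 0.37 (DESeq2 adjusted p = 0.0414). Evl and Prkcd had small spread on both sides, whereas Inhbb stayed under 5 CPM in the 8 wild-type libraries. Cacna1a, a P/Q-type calcium channel subunit, had a log2 fold change of 1.07, from 7.03 to 14.2 CPM in WT/GFP and from 20.6 to 26.8 CPM in WT/aYAP. Plagl1, an imprinted zinc finger factor, had one of 0.66, and Igf2bp1, a fetal RNA-binding protein, one of 0.79. Lrrfip2, Fgfbp3, Aldh1l1 and Eprn also belonged to this group, with log2 fold changes between 0.42 and 0.83. Aldh1l1 was under 1 CPM in every WT/GFP library and passed the filter on low values through WT/aYAP and KO/GFP, where it is high, so that a difference was built into its being tested. The value of Plagl1 was 0.42 without WT/GFP 1 and 2.

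On the lower side, Cdv3 had the smallest p. Cdv3, a carnitine deficiency-associated gene, was 102, 127, 106 and 123 CPM in WT/GFP and 84.9, 85.9, 77.1 and 73.2 CPM in WT/aYAP, a log2 fold change of −0.50 (limma adjusted p = 0.585, DESeq2 adjusted p = 0.0177). Tuba8, an alpha tubulin of muscle and testis, was 98.4, 70.9, 83.8 and 63.1 CPM against 55.3, 35.1, 36.5 and 36.1 CPM, a log2 fold change of −0.94 (DESeq2 adjusted p = 0.0195). Lpcat1, a lysophosphatidylcholine acyltransferase, was 13.9, 14.4, 9.30 and 6.46 CPM against 3.12, 2.96, 4.53 and 2.43 CPM, a log2 fold change of −1.46 (DESeq2 adjusted p = 0.0177). These 3 genes were chosen among those without overlap, and Lpcat1 in WT/GFP 3 and 4 was below WT/GFP 1 and 2. Mtfp1, a mitochondrial fission protein, Rgs4, a G protein regulator, Mavs, the antiviral adaptor of mitochondria, and Pcolce2, a procollagen protease enhancer, were lower by −0.57, −0.58, −0.44 and −0.59 on the log2 scale. Slc16a12, Nr0b2, Pgbd5, Ttll11 and Arhgap30 completed the group, with log2 fold changes from −0.77 to −0.49. Without WT/GFP 1 and 2, Nr0b2, a nuclear receptor co-repressor, went from −0.77 to −0.33 and Rgs4 from −0.58 to −0.35. DESeq2 called 7 genes higher and 4 lower, and beyond those given these were the predicted genes Gm30648, Gm45457 and 5430431A17Rik (higher) and the pseudogene Mrpl48-ps (lower), whose reads may be shared with its parent gene. Gm30648 was under 1 CPM in every WT/GFP library and passed the filter mainly through WT/aYAP and KO/GFP, where it is high.

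**Figure D3:**
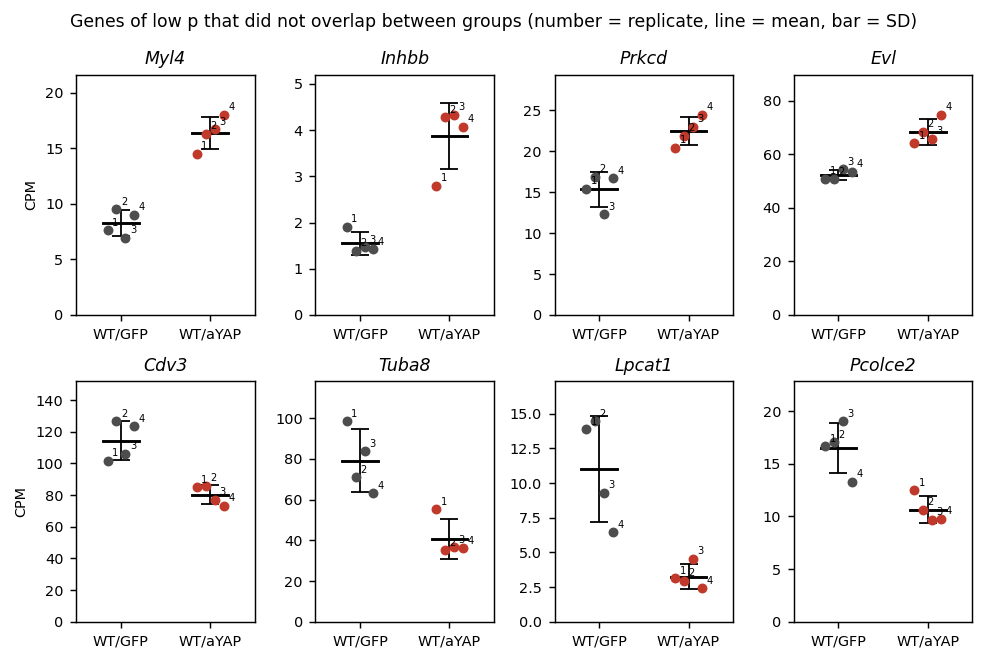
CPM in each wild-type library for 8 genes of low p whose groups did not overlap, drawn as in the plot of target genes. Myl4, Inhbb, Prkcd and Evl are higher in WT/aYAP and Cdv3, Tuba8, Lpcat1 and Pcolce2 are lower, and Inhbb is under 5 CPM in every library.

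Of the cell cycle genes, for which YAP activity is best known in the newborn heart, none was called after adjustment in limma in wild-type hearts. Of 54 G2/M genes, 23 had a positive log2 fold change with a median of −0.05, and of 43 S-phase genes 23 did with a median of 0.02. The G2/M median was 0.08 without WT/GFP 1 and 2, and 39 of 54 were then positive. No gene of either list had a limma p under 0.05, where 3.49% of all genes did in the higher direction and 3.44% in the lower. These p-values used the spread of all 16 injected libraries, knockout included. The count of 0 therefore does not show that these genes were unusually level in wild type. Every G2/M and S-phase gene had an upper 95% bound under 1 on the log2 scale, as did 14139 of all 14597 genes. Cdk1, the mitotic kinase, was 42.4, 35.3, 36.5 and 28.2 CPM in WT/GFP and 43.8, 32.6, 34.0 and 36.8 CPM in WT/aYAP. Ccnb1, its cyclin, was 33.5, 39.9, 26.4 and 22.0 CPM against 31.5, 34.4, 24.9 and 23.0 CPM. The groups overlapped for both. Ccnd1, Ccna2, Aurka and Cdc20 had log2 fold changes from −0.20 to −0.04. Of 25 cyclins, CDKs and CDK inhibitors, 16 were positive (median 0.03) and 0 had an unadjusted p under 0.05 in limma, and without WT/GFP 1 and 2 there was 1, higher, beside 1.74% of all genes. It was Foxm1, a mitotic transcription factor, named here after its value was seen, with a log2 fold change of 0.51 that became 1.11. Foxm1 varied widely within groups, at 26.4, 10.5, 5.71 and 7.8 CPM in WT/GFP and 24.8, 15.7, 21.7 and 6.76 CPM in WT/aYAP.

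In Xinβ knockout hearts the same vectors gave another picture, with 1146 genes higher (7.85%) and 1010 lower (6.92%) at an adjusted p under 0.05 in limma. Of the 54 G2/M genes, 30 were higher there, with a median log2 fold change of 0.93. Macrophage markers moved with them in knockout, at a median of 1.15 with 7 of 9 higher, and the difference between genotypes was called for 4 of 9, all lower in wild type. Their part in the cell cycle result was not tested. Because the fit shared 1 estimate of spread, the effects were compared directly: 550 genes (3.77%) had a higher and 554 (3.8%) a lower effect in wild type than in knockout at an adjusted p under 0.05, and with every column scaled to the same total these were 345 and 884, where the median difference over all genes was −0.12 in place of −0.01. The difference was called for 10 of 54 G2/M genes and 1 of 43 S-phase genes, all with the lower effect in wild type. Among canonical targets it was called for 3 of 28. Axl had −0.11 in wild type and 0.61 in knockout (adjusted p of the difference 0.0058), while Nt5e had 0.39 and −0.74, and Igfbp3 had 0.33 and −1.63. For Ankrd1 the effects were 0.57 and 0.39 and for Cyr61 0.66 and 0.89, and neither difference was called. Tead3 was opposed, at 0.44 in wild type and −0.75 in knockout (adjusted p of the difference 0.00195). Of 29 matrix genes, the difference was called for 14, each lower in wild type. Fibroblast markers moved with them, at a median of 0.89 in knockout, and the difference was called for 6 of 9, all lower in wild type; their part in the matrix result was not tested. Lum, Col3a1 and Col15a1 had 0.08, −0.05 and 0.06 in wild type and 1.08, 1.18 and 1.54 in knockout. They were named for the small p of this difference.

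**Figure D4:**
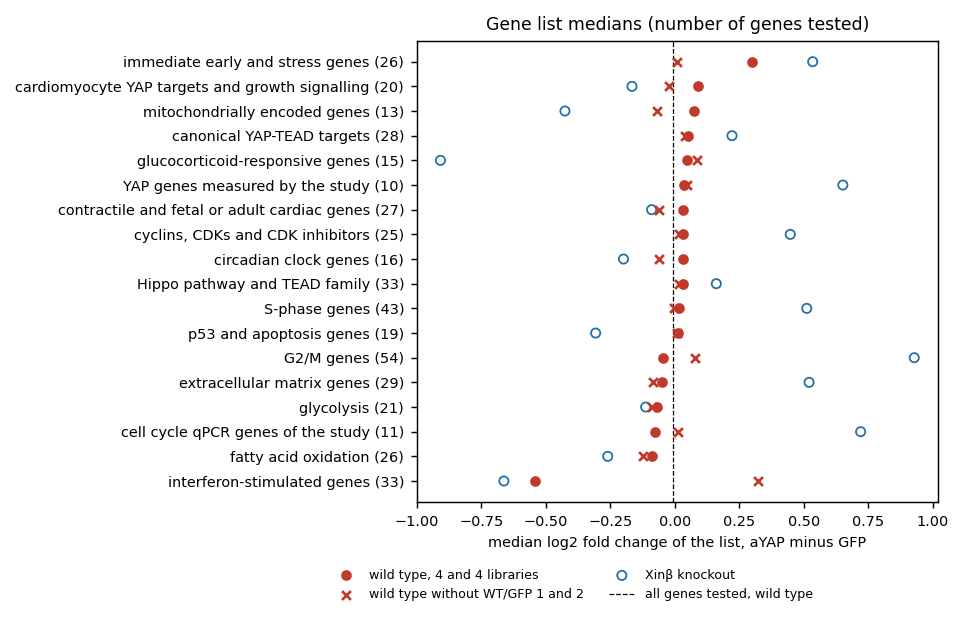
Median log2 fold change of each gene list, aYAP minus GFP, in wild type with all 8 libraries (filled), in wild type without WT/GFP 1 and 2 (crosses) and in Xinβ knockout (open), beside the median of all genes (dashed). The interferon-stimulated (−0.54) and immediate early (0.30) medians move to 0.32 and 0.01 without WT/GFP 1 and 2.

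Of the contractile genes, none was called after adjustment in limma. Tnnt2, cardiac troponin T, was 6223, 5690, 7776 and 6414 CPM in WT/GFP and 7504, 7864, 7558 and 8335 CPM in WT/aYAP, a log2 fold change of 0.27 (limma adjusted p = 0.703). WT/GFP 3 reached into the WT/aYAP range, and the value was 0.15 without WT/GFP 1 and 2. Tnni1, the fetal troponin I, was 407, 382, 387 and 360 CPM against 569, 426, 450 and 412 CPM without overlap, a log2 fold change of 0.26 (limma adjusted p = 0.775). Xirp2, the gene of Xinβ, was 103, 99.0, 115 and 149 CPM in WT/GFP and 93.8, 90.5, 81.6 and 56.0 CPM in WT/aYAP, so that all 4 WT/aYAP values were lower. Its log2 fold change was −0.54 (limma adjusted p = 0.703), and −0.17 for its paralogue Xirp1 (limma adjusted p = 0.865), which became −0.09 without WT/GFP 1 and 2. Over 27 contractile genes tested, 2 were higher and 1 lower at an unadjusted p under 0.05, beside 3.49% and 3.44% of all genes, and the median log2 fold change was 0.03 with 14 positive. The median was −0.06 with 10 positive when WT/GFP 1 and 2 were left out.

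Growth factor signalling through insulin and IGF, which YAP is known to feed in cardiomyocytes, had no gene called after adjustment in limma. Irs1, the insulin receptor substrate, was 42.1, 43.6, 45.7 and 46.8 CPM in WT/GFP and 64.5, 66.0, 52.3 and 51.6 CPM in WT/aYAP, a log2 fold change of 0.38 (limma adjusted p = 0.703). Igf1r, the IGF1 receptor, was 58.4, 62.7, 57.5 and 67.5 CPM against 71.7, 73.4, 69.3 and 74.9 CPM, a log2 fold change of 0.23 (limma adjusted p = 0.703). Myc was 3.88, 5.41, 5.98 and 5.37 CPM against 7.003, 8.02, 6.38 and 8.01 CPM (limma adjusted p = 0.723). None of these 3 genes, named for a small p, overlapped between the groups, beside 2.12% of all genes higher without overlap. Each had a called difference from knockout, where the log2 fold changes were −0.69, −0.27 and −0.60. The difference was called for 5 of 20 genes of the list, 1 of them lower in wild type. Over all genes it was called higher in wild type for 3.77% and lower for 3.8%. Irs2, by contrast, was 8.19 and 11.6 CPM in WT/GFP 1 and 2 and 81.0 and 46.3 CPM in WT/GFP 3 and 4, and its log2 fold change of 1.23 became −0.03 without the first pair. Of the 20 genes of this list tested, 3 were higher and 0 lower at an unadjusted p under 0.05 in limma, beside 3.49% and 3.44% of all genes. When WT/GFP 1 and 2 were left out, Irs1, Igf1r and Irs2 no longer had such a p, and 1 other gene did, beside 1.74% of all genes. It was Ctnnb1, the beta-catenin gene, named here after its value was seen, with a log2 fold change of 0.14 that became 0.61. Ctnnb1 also varied widely within groups, at 556, 568, 254 and 333 CPM in WT/GFP and 523, 303, 499 and 497 CPM in WT/aYAP. The list's median went from 0.09 to −0.02 with 8 of 20 positive in place of 12.

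No metabolic gene was called after adjustment in limma. Of 26 fatty acid oxidation genes 21 had a negative log2 fold change (median −0.09), and of 21 glycolytic genes 18 did (median −0.07), where 7480 of all 14597 genes were negative. At an unadjusted p under 0.05, 1 fatty acid oxidation gene was higher and 1 lower and 0 glycolytic genes were either, beside 3.49% and 3.44% of all genes. Without WT/GFP 3 and WT/aYAP 4 the fatty acid oxidation median was 0.01, and the glycolysis median lay between −0.13 (without WT/aYAP 1) and −0.02 (without WT/GFP 1). Acads, short-chain acyl-CoA dehydrogenase, was 151, 145, 94.1 and 100.5 CPM in WT/GFP and 100.2, 95.8, 96.3 and 66.5 CPM in WT/aYAP, a log2 fold change of −0.43 (limma adjusted p = 0.703). Acads was high in WT/GFP 1 and 2 only, and its value without them was −0.13. Ppargc1a, the co-activator of mitochondrial biogenesis, was 105, 153, 168 and 169 CPM against 157, 287, 252 and 228 CPM, a log2 fold change of 0.62 (limma adjusted p = 0.703). Pgam1, a glycolytic mutase, was lower without overlap by −0.24 on the log2 scale (limma adjusted p = 0.822).

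Interferon-stimulated genes had the lowest median of any list with more than 10 genes, at −0.54, with 32 of 33 negative and 7 lower at an unadjusted p under 0.05 beside 3.44% of all genes, but this rested on WT/GFP 1 and 2. Iigp1, an interferon-inducible GTPase, was 176, 52.0, 7.56 and 7.67 CPM in WT/GFP and 8.78, 9.47, 9.06 and 7.22 CPM in WT/aYAP. Gbp7, a guanylate-binding protein, was 151, 59.4, 17.7 and 17.5 CPM against 14.8, 21.9, 18.4 and 18.3 CPM. WT/GFP 3 and 4 lay in the WT/aYAP range for both genes. Without WT/GFP 1 and 2 the list's median was 0.32 with 27 of 33 positive and 3 higher at an unadjusted p under 0.05, beside 1.74% of all genes, and Iigp1 went from −1.59 to 0.16 and Gbp7 from −1.14 to 0.04. Irf1, an interferon-induced transcription factor, was 58.9, 34.4, 14.4 and 13.4 CPM in WT/GFP and 6.03, 6.39, 14.0 and 7.29 CPM in WT/aYAP. Its log2 fold change of −1.55 became −0.73, and that of Ifih1, a sensor of viral RNA, went from −0.55 to −0.14.

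The interferon-stimulated response element, searched as GAAA, any pair of bases and GAAA again, or the same with TTTC on the other strand, was present in 44.4% of the 36 promoters of the interferon list and in 2.98% of all promoters of the same length. The Gbp7 promoter (RefSeq, GRCm38.p6, chr3:142530086-142530335, plus strand) is shown as the example, with the element in capitals 53 bases before the start site.
Gbp7: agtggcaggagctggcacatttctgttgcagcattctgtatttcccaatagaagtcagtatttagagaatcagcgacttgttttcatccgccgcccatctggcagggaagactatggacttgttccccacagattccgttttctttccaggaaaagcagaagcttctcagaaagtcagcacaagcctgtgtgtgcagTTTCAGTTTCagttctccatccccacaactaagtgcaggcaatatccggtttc

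Immediate early genes showed the reverse pattern in the same libraries. Nr4a1, an orphan nuclear receptor, was 12.2 and 10.9 CPM in WT/GFP 1 and 2, 180 and 121 CPM in WT/GFP 3 and 4, and 128, 215, 118 and 122 CPM in WT/aYAP. Atf3, a stress transcription factor, was 7.59, 6.41, 28.6 and 23.0 CPM against 26.6, 60.5, 21.2 and 32.9 CPM. The log2 fold changes of 1.72 for Nr4a1 (limma adjusted p = 0.703) and 1.21 for Atf3 (limma adjusted p = 0.703) became −0.07 and 0.34 without WT/GFP 1 and 2. The list's median went from 0.30 to 0.01, and its 4 genes at an unadjusted p under 0.05 (Klf4, Klf6, Nr4a1 and Atf3) to 0, beside 3.49% of all genes with these libraries and 1.74% without. Per1, a clock gene that also responds to glucocorticoids, followed the same libraries, at 19.4 and 14.8 CPM in WT/GFP 1 and 2 and between 53.3 and 132 CPM in the other 6.

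**Figure D5:**
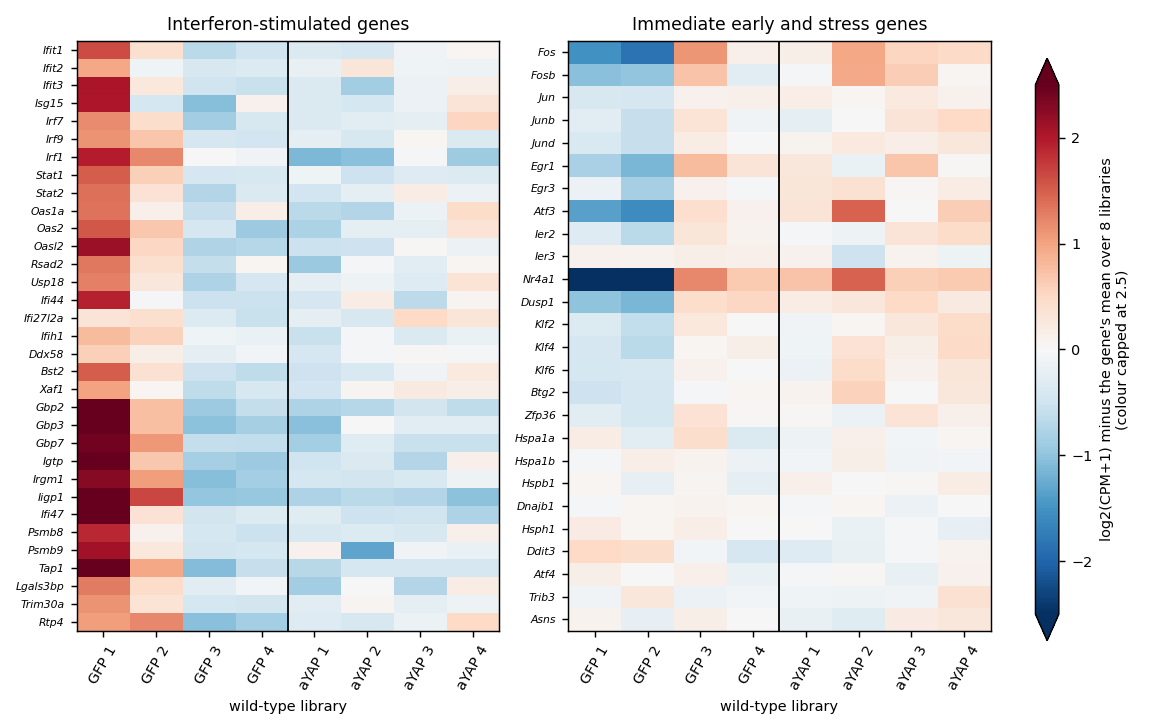
Log2(CPM+1) of each interferon-stimulated gene (left, 33 genes) and immediate early or stress gene (right, 26 genes) in the 8 wild-type libraries, minus the gene's mean over these libraries. WT/GFP 1 is high across the interferon list and WT/GFP 2 less so, and both are low for Nr4a1 and Atf3, while WT/GFP 3 and 4 resemble the WT/aYAP libraries.

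Markers of the other cell types of the heart differed by list. In bulk RNA, fewer cells of a type and less RNA per cell cannot be told apart. Of 9 fibroblast markers 4 were positive, with log2 fold changes between −0.07 and 0.08. Of 9 smooth muscle and pericyte markers 7 were negative (median −0.10), 2 of them at an unadjusted p under 0.05, beside 3.44% of all genes. Of 9 macrophage markers 8 were negative (median −0.21), and their summed level was 132 to 216 CPM in WT/GFP and 121 to 133 CPM in WT/aYAP. Csf1r, the receptor for macrophage growth factor, and Lyz2, lysozyme, were the 2 with an unadjusted p under 0.05, at −0.33 and −0.53 on the log2 scale. WT/GFP 1 and 2 had the highest Lyz2, at 51.6 and 45.3 CPM beside 18.4 to 28.4 CPM in the other 6, and without them Lyz2 and Csf1r stood at −0.08 and −0.15. The median of the 9 macrophage markers without these libraries was −0.08, with 4 of 9 positive. All 7 erythroid markers tested were negative, and their summed level was 3393 to 8425 CPM in WT/GFP and 2665 to 3884 CPM in WT/aYAP, where WT/GFP 4 held the top value. Their median went from −0.41 to −0.75 without WT/GFP 1 and 2. With all 8 libraries 1 of 7 was lower at an unadjusted p under 0.05, beside 3.44% of all genes. Without WT/GFP 1 and 2 it was 4 of 7, beside 1.31% of all genes. Of 7 epicardial markers 6 were positive and 3 (Upk3b, Msln and Krt8) were higher at an unadjusted p under 0.05, beside 3.49% of all genes. Upk3b, a mesothelial uroplakin, was 2.09, 4.46, 0 and 1.15 CPM in WT/GFP and 5.39, 2.77, 7.21 and 2.89 CPM in WT/aYAP, so that WT/GFP 3 and 4 were the low ones. Its log2 fold change was 1.10, and 1.84 when WT/GFP 1 and 2 were left out. No marker was called after adjustment in limma, while DESeq2 called Myl4 of the atrial list, and the markers' part in the gene differences above was not tested.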

How the data were processed

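Strand-specific polyA libraries of the injected hearts were sequenced as paired reads of 150 bases. Adapters were removed with cutadapt 2.3. Alignment to GRCm38 used HISAT2 2.1.0, and gene matrices came from StringTie 1.3.4, as the submitters' processing notes and the methods state. The deposited values are a signal, CPM that the authors computed with edgeR 3.26.1. Columns summed to between 951561 and 1134439, as scaled library sizes would give. Each value was a whole multiple of what 1 read was worth (100% within 0.1 of a read in each library), so counts were recovered from the deposited values for the count tests, in which edgeR called 0 genes and DESeq2 called 11.

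Genes above 1 CPM in at least 8 of the 16 injected libraries were kept, 14597 of 15327. Values of log2(CPM+1) were fitted in limma 3.58.1 (R 4.3.3) with a mean-variance trend, 1 mean for each of 4 groups, and Benjamini-Hochberg adjustment, called at 0.05. This scale understates the change of low genes. The difference between genotypes was a contrast of the same fit. Alternatives were edgeR 4.0.16, DESeq2 1.42.0, other scalings, filters and pseudocounts, quality weights, a replicate block and leaving out libraries. The fits were tested on simulated data. Intervals are 95%.

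Members and lists were chosen with earlier results of these data known, and lists were described by counts and medians. Named genes were members of the target and Hippo lists in order of p, the 12 of smallest p without overlap in each direction (predicted genes left out of the 12, and 1 gene not reported here), genes called by any tool, up to 4 of smallest p in each other list, genes of the study's qPCR, Xirp1, Xirp2, Yap1, Xist and Ddx3y, and the 5 list genes of smallest p for the difference between genotypes. G2/M and S-phase lists came from Seurat 5.3.0, promoters from RefSeq and positions from GENCODE. Equal replicate numbers did not pair the libraries. The uninjected hearts, sequenced and normalised apart, were not used here.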

Additional observations from a re-analysis of the deposited data

Results flagged for a closer look

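In 20 of 192 groups of 4 libraries examined, 1 library stood far from the other 3, where chance gives about 1 in 20 groups, or 9.6. WT/GFP 1 stood apart in Inhbb at 1.913 against 1.394 to 1.468 CPM and Mtfp1 at 76.98 against 58.5 to 60.46 CPM. WT/GFP 2 stood apart in Ccdc80 at 49.98 against 81.64 to 84.1 CPM. WT/GFP 3 stood apart in Ankrd1 at 630.3 against 546.3 to 554.8 CPM and Ccnd2 at 247.2 against 296.1 to 297.1 CPM. WT/GFP 4 stood apart in Wwtr1 at 105.4 against 112.2 to 112.8 CPM, Xist at 938 against 1.434 to 97.15 CPM and Ddx3y at 0.1096 against 54.22 to 56.72 CPM. WT/aYAP 1 stood apart in Top2a at 124.4 against 85.99 to 87.95 CPM, Tuba8 at 55.32 against 35.1 to 36.55 CPM and Mavs at 33.29 against 26.53 to 27.63 CPM. WT/aYAP 2 stood apart in Dab2 at 43.84 against 28.09 to 30.23 CPM, Nr4a1 at 215.5 against 117.8 to 127.7 CPM and Ctnnb1 at 303.4 against 497.2 to 523.1 CPM. WT/aYAP 3 stood apart in Limd1 at 84.64 against 23.76 to 28.7 CPM, Pgbd5 at 0.5741 against 1.444 to 1.454 CPM and Irf1 at 14.03 against 6.033 to 7.285 CPM. WT/aYAP 4 stood apart in Mob1a at 15.23 against 50.01 to 54.94 CPM, Cacna1a at 26.84 against 20.6 to 21.53 CPM and Acads at 66.48 against 95.82 to 100.2 CPM.

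The effect of active YAP differed between wild-type and knockout hearts for a number of the genes named, by a limma contrast of both effects at an adjusted p under 0.05. As the wild-type minus the knockout log2 fold change, it was higher in wild type for Mt2 (3.18), Nppa (2.38), Inhbb (2.3), Aldh1l1 (2.04), Igfbp3 (1.95), Gm30648 (1.68), 5430431A17Rik (1.68), Plagl1 (1.35), Tead3 (1.2), Nt5e (1.13), Tnni1 (1.13), Irs1 (1.07), Myc (1.05), Myl4 (1.01), Fgfbp3 (1.01), Igf2bp1 (0.94), Gm45457 (0.91), Tnnt2 (0.88), Lrrfip2 (0.7), Prkcd (0.58) and Igf1r (0.5). It was lower in wild type for Tuba8 (−2.6), Lpcat1 (−2.2), Pcolce2 (−1.67), Col15a1 (−1.49), Aurka (−1.42), Csf1r (−1.4), Cdc20 (−1.38), Rgs4 (−1.26), Col3a1 (−1.23), Tubb4b (−1.17), Mtfp1 (−1.08), Dab2 (−1), Lum (−1), Ttll11 (−0.96), Cdv3 (−0.91), Taok3 (−0.85), Axl (−0.73), Col6a1 (−0.72), Ccnd2 (−0.71) and Slc16a12 (−0.68). Aldh1l1 and Gm30648 were tested through the groups where they were high. Many of the others were named for a small p in wild type. The naming rule took Lum, Col3a1, Col15a1, Tead3 and Mt2 for a small p of this same difference. Such calls were partly fixed by the choice of genes and add no support. Over all 14597 genes, 3.77% had a called higher effect and 3.8% a called lower effect in wild type. No cause of these differences was tested.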

How the results depend on the processing

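No gene passed in 18 of 23 alternatives. Quality weights called 1 gene (Myl4) and DESeq2 called 11. Leaving out 1 library gave 0 to 1 (Tmem168 without WT/GFP 4, Amigo1 without WT/aYAP 3), and leaving out both libraries with low Ddx3y (WT/GFP 4, WT/aYAP 3) gave 4 (Nkiras2, Tmem168, Amigo1 and Nav2). The 1011 genes at an unadjusted p under 0.05 became 1579 with quality weights, 650 to 1207 without 1 library (650 without WT/GFP 1, 655 without WT/GFP 2) and 445 without both. The 1104 genes whose effect differed by genotype became 2982 with quality weights, 631 to 1049 without 1 library (639 without WT/GFP 2, and 666, 676 and 631 without WT/aYAP 2, 3 and 4), 441 without the libraries with low Ddx3y, 591 without WT/GFP 3 and WT/aYAP 4, and 459 without WT/GFP 1 and 2. The last 3 sets were chosen after seeing the data. Only wild-type libraries were left out, so how far the genotype counts depend on single knockout libraries was not tested. A replicate block called 0 genes between the wild-type groups and 707 between genotypes, and same-numbered libraries correlated at only −0.158 to 0.016. With equal column totals, 60.1% in place of 50.3% of genes at an unadjusted p under 0.05 were higher. Of 45 genes followed, 3 reversed, each without WT/GFP 1 and 2: Gbp7 (0.043), Iigp1 (0.155) and Nr4a1 (−0.068). The causes were not tested. With 4 hearts a group, small differences were not resolved, and for genes near 1 CPM the few reads add counting error.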
